A study of Mus musculus with 6 samples.

Results

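Gene expression in gp130 and IL-22 receptor signalling was followed through 10 genes in biliary epithelial cells, the epithelium that lines the bile ducts, sorted from mouse liver. They were chosen by name, with earlier results of these data known, and no measured value decided which gene belonged: the receptor genes Il6st, Lifr, Osmr, Il6ra and Il22ra1, the kinase genes Jak1 and Jak2, the transcription factor gene Stat3, and the STAT3-induced genes Socs3 and Pim3. All 10 were found among the 21700 genes of the deposited table. The samples were 3 libraries from pregnant mice at 8 days post coitum and 3 from non-pregnant mice. Non-pregnant library 3 carries the number 3 in its title and 4 in its description, and the number in the title is used here; the labels do not say why they differ. All mice were wild-type C57BL/6 females, and the labels give no age. Livers were digested with enzymes, and the cells were sorted by FACS from what remained after hepatocytes had been spun out; the labels do not name the antibodies of the gate. The labels do not state whether the libraries of a group came from separate mice, so the p-values cover only the spread between these libraries, which may be technical.

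The receptor chain gp130, encoded by Il6st, is shared by the cytokines of the IL-6 family: IL-6 reaches it through the IL-6 receptor (Il6ra), LIF through the LIF receptor (Lifr) and oncostatin M, in the mouse, mainly through its own receptor (Osmr). IL-22 signals instead through Il22ra1 paired with Il10rb. Both kinds of receptor use Janus kinases to phosphorylate STAT3, which switches on Socs3, an inhibitor that binds gp130 and the kinases and shuts the signal down, and other genes that include Pim3, a serine/threonine kinase of the PIM family. In bile ducts this route is known for its part in the growth and barrier function of the epithelium after injury.

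All libraries carried the markers of biliary epithelium. Spp1 stood between 5532 and 5941 FPKM in pregnant and between 3941 and 5206 FPKM in non-pregnant libraries, Sox9 between 283 and 332 FPKM in pregnant and between 276 and 306 FPKM in non-pregnant ones, and Epcam between 190 and 195 FPKM in pregnant and between 182 and 184 FPKM in non-pregnant ones. Krt19 lay between 343 and 386 FPKM in pregnant and between 220 and 337 FPKM in non-pregnant libraries. FPKM is the number of fragments per kilobase of exon, scaled for sequencing depth, and each library held between 25047887 and 35083751 fragments. Non-pregnant libraries 2 and 3 stood apart. Rank correlations over the genes tested (Spearman) lay between 0.991 and 0.995 among pregnant libraries and between 0.956 and 0.979 among non-pregnant ones. With the pregnant libraries they lay between 0.981 and 0.987 for non-pregnant library 1. They lay between 0.974 and 0.979 for library 2 and between 0.958 and 0.967 for library 3. Non-pregnant library 1 was thus nearer to each pregnant library than to the others of its group. The 8 endothelial markers summed to 186 FPKM in non-pregnant library 2, against 15.1 to 30.2 FPKM in the other 5 libraries. The 13 macrophage markers, none of them at 0 throughout, summed to between 114 and 191 FPKM in pregnant and between 57.8 and 90.9 FPKM in non-pregnant libraries. Of these 13, 11 passed the filter of the test described below, 8 of them only through their pregnant values. Of the 11, 9 were higher in pregnancy with no overlap, against 9.90% of all tested genes, and the groups overlapped for Csf1r and Cd68. Csf1r (19.1 to 43.7 FPKM) and Cd68 (36.0 to 40.3 FPKM) made up most of the non-pregnant sums. In that test (limma) adjusted p was 0.0357 for Cd5l, C1qa, C1qc and Ctss and 0.0393 for Fcna. Each of these passed the filter only through its pregnant values. Clec4f stood between 5.90 and 18.0 FPKM in pregnant and between 0.299 and 1.51 FPKM in non-pregnant libraries. The 11 hepatocyte markers summed to between 2522 and 2884 FPKM in pregnant and between 2924 and 3650 FPKM in non-pregnant libraries. Alb made up most of the sum, with 2074 to 2274 FPKM in pregnant and 1973 to 2550 FPKM in non-pregnant libraries, and its groups overlapped. All 10 that were tested lay lower in pregnancy. For 2 of them, Ttr and Ahsg, the groups did not overlap, and 12.2% of all tested genes were lower in this way. Ahsg had the largest change of the list, at 195, 221 and 143 FPKM in pregnant and 516, 502 and 664 FPKM in non-pregnant libraries. The 8 stellate cell and fibroblast markers summed to between 9.24 and 12.0 FPKM in pregnant and between 12.2 and 15.6 FPKM in non-pregnant libraries. The 11 biliary markers summed to between 8209 and 8735 FPKM in pregnant and between 6133 and 7592 FPKM in non-pregnant libraries. What part these cells have in the values below was not tested, and in bulk libraries fewer cells of a type and less RNA per cell cannot be told apart.

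The comparison asks how these genes differ in early pregnancy from their level outside pregnancy. In the pregnant libraries Socs3, Jak2, Stat3, Il6ra and Il22ra1 all stood lower than in every non-pregnant library, by ratios of the group means between 0.409 for Il6ra and 0.873 for Stat3, while Il6st, Lifr, Osmr, Jak1 and Pim3 overlapped between the groups. None of the 10 passed the test over all genes (limma on log2(FPKM + 1), Benjamini-Hochberg adjusted p from 0.268 for Socs3 to 0.820 for Lifr). The test covered the 11412 genes that averaged 1 FPKM or more, of which 10 were called, or 0.0876%. At an unadjusted p under 0.05 there were 4 of the 10 genes, all lower in pregnancy, where 6.30% of all tested genes were lower in this way, and limma-voom on recovered fragments also called 0 and gave 4. Groups that did not overlap, lower in pregnancy, were found for 5 of the 10 and for 12.2% of all tested genes. Il6ra and Il22ra1 averaged under 1 FPKM in pregnancy and passed the filter only through their non-pregnant values, so at their pregnant level they would not have been tested; without them the count was 3 of 8. The median log2 change of the 10 genes was -0.22, and that of all tested genes was -0.021. Il6ra and Il22ra1 lie below this -0.22, so the median rests partly on genes kept through their non-pregnant values.

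**Figure D1:**
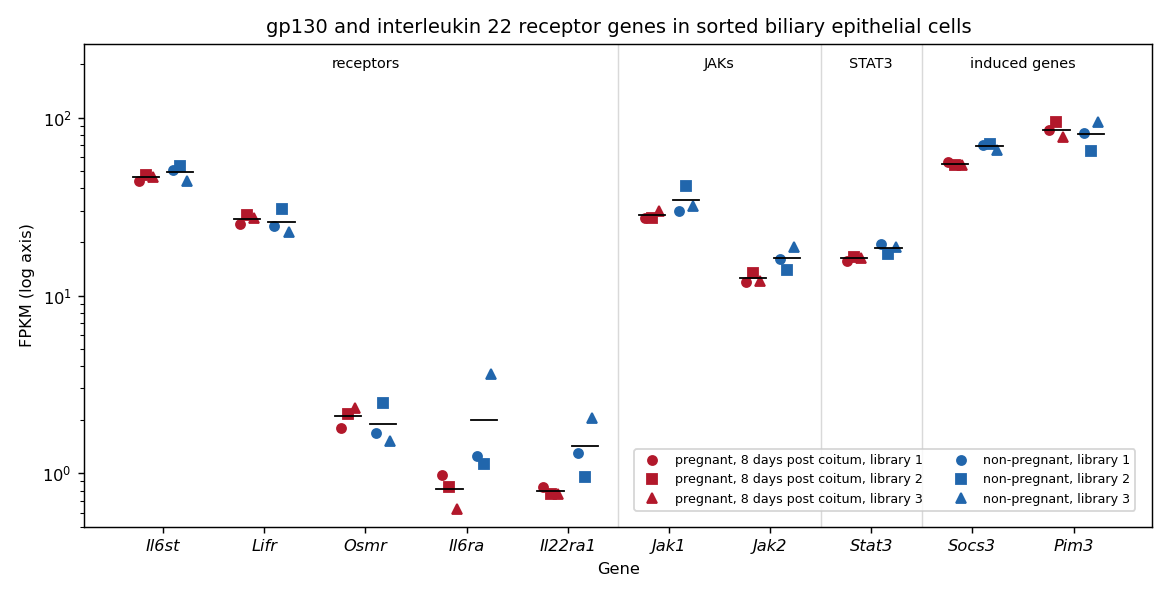
FPKM of the 10 genes in each library (log axis), with pregnant libraries in red to the left of non-pregnant libraries in blue, and group means as black lines (3 libraries each). Il6st and Lifr stand above 20 FPKM in every library while Osmr, Il6ra and Il22ra1 stay under 4 FPKM, and the pregnant points of Il6ra, Il22ra1, Jak2, Stat3 and Socs3 lie below all non-pregnant points.

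Among the receptors, the signalling chain itself was abundant and did not differ beyond its spread. Il6st stood at 44.3, 47.8 and 46.4 FPKM in pregnant libraries 1 to 3, against 51.1, 53.6 and 44.1 FPKM in non-pregnant libraries 1 to 3 (log2 change -0.097, 95% interval from -0.31 to 0.12; limma adjusted p = 0.628). Lifr, which pairs with gp130 to receive LIF, cardiotrophin 1 and related cytokines, stood at 25.2, 28.4 and 27.3 FPKM in pregnant and at 24.8, 30.6 and 22.7 FPKM in non-pregnant libraries (log2 change 0.059, 95% interval from -0.21 to 0.32). For both genes the pregnant values lay inside the range of the non-pregnant ones. Osmr was at a far lower level per length, 1.79, 2.14 and 2.32 FPKM in pregnant and 1.69, 2.47 and 1.53 FPKM in non-pregnant libraries (log2 change 0.10, 95% interval from -0.22 to 0.43), and its groups overlapped too. Osmr and Lifr are neighbours on mouse chromosome 15, with 215.6 kb and no protein-coding gene between them in GENCODE M21.

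The receptor chains that bind IL-6 and IL-22 were both near 1 FPKM and both lower in pregnancy. Il6ra stood at 0.977, 0.835 and 0.631 FPKM in pregnant libraries, against 1.24, 1.13 and 3.61 FPKM in non-pregnant libraries. The groups did not overlap, and most of the distance between the means came from non-pregnant library 3, which had 1099 fragments of the gene where the other 5 libraries had between 138 and 308. The log2 change was -0.63 ± 0.28 (SE; limma adjusted p = 0.381), and without non-pregnant library 3 it was -0.27. Il22ra1 stood at 0.833, 0.768 and 0.769 FPKM in pregnant and at 1.305, 0.953 and 2.03 FPKM in non-pregnant libraries, from 50 to 61 and from 74 to 184 fragments per library. Every pregnant library lay below every non-pregnant one, again with non-pregnant library 3 the highest (log2 change -0.42 ± 0.16, SE; limma adjusted p = 0.352; -0.25 without that library). The pseudocount of 1 FPKM holds down the change of genes at this level: with a pseudocount of 0.1 FPKM the log2 change was -1.02 for Il6ra and -0.72 for Il22ra1. Its partner chain Il10rb, which Il22ra1 shares with the IL-10 receptor, was far more abundant per length in each library, at 17.7, 17.1 and 16.0 FPKM in pregnant and 17.6, 19.1 and 15.4 FPKM in non-pregnant libraries, and overlapped between groups.

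Of the kinases, Jak2 stood lower in pregnancy in every library. It was at 12.0, 13.4 and 12.1 FPKM in pregnant and at 16.1, 13.9 and 18.7 FPKM in non-pregnant libraries (ratio of means 0.769; log2 change -0.35 ± 0.11, SE; limma adjusted p = 0.301). The highest pregnant value, 13.4 FPKM, was close to the lowest non-pregnant value, 13.9 FPKM. Jak1, the kinase that gp130 chiefly depends on, stood at 27.4, 27.2 and 30.0 FPKM in pregnant and at 29.7, 41.4 and 31.8 FPKM in non-pregnant libraries. Its groups overlapped by a narrow margin, and the value that stood out was that of non-pregnant library 2, the library with the high endothelial markers (log2 change -0.26 with all libraries and -0.12 without that one; limma adjusted p = 0.401 with all libraries). The part of endothelial transcripts in Jak1 was not tested. Tyk2, the other kinase of these receptors, stood between 8.90 and 9.41 FPKM in pregnant and between 6.76 and 9.74 FPKM in non-pregnant libraries.

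Stat3, on which both receptor families converge, was slightly lower in pregnancy. It stood at 15.6, 16.5 and 16.3 FPKM in pregnant libraries, against 19.6, 17.2 and 18.8 FPKM in non-pregnant libraries. No values overlapped, yet the gap between the groups was under 1 FPKM (ratio of means 0.873; log2 change -0.18 ± 0.075, SE; limma adjusted p = 0.362). Stat3 (ENSMUSG00000004040; mm10, chromosome 11, 100885098 to 100939540, minus strand) shares its last 72 bases with the end of Stat5a on the opposite strand, and whether counting used the strand is not stated. Il6ra, Jak1 and Cish also overlap exons of other gene models on the opposite strand, Jak1 those of Raver2, so their values carry the same uncertainty.

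**Figure D2:**
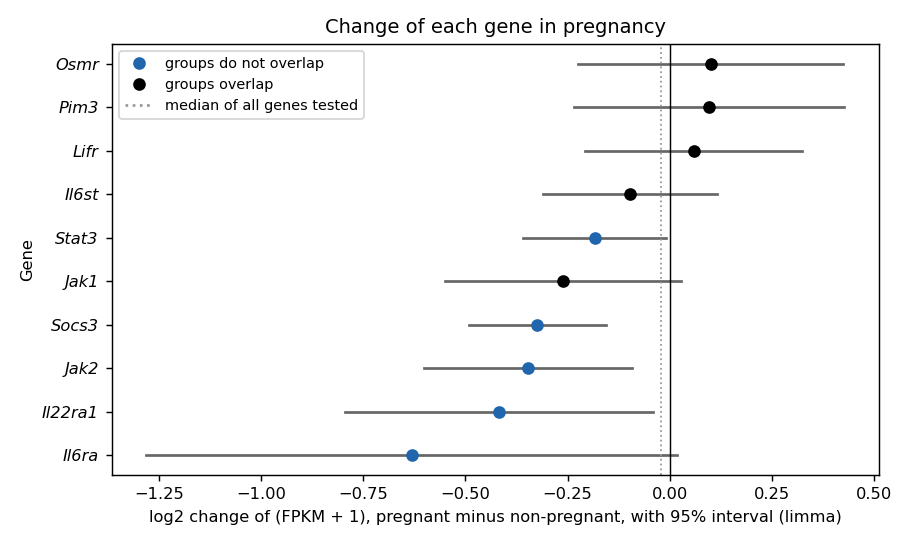
Log2 change of each gene (pregnant minus non-pregnant, on log2(FPKM + 1)) with its 95% interval from limma, 3 libraries a group; blue points are genes whose groups do not overlap. The interval of Socs3, from -0.49 to -0.16, is the narrowest among the genes with groups that do not overlap, and those of Osmr, Pim3, Lifr, Il6st, Jak1 and Il6ra span 0.

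Of the 10 genes, Socs3 had the smallest p. It stood at 56.5, 54.3 and 54.0 FPKM in pregnant libraries, against 70.1, 70.9 and 66.1 FPKM in non-pregnant libraries. The 2 groups were tight, averaging 54.9 ± 1.36 FPKM in pregnant and 69.0 ± 2.54 FPKM in non-pregnant libraries (SD, n = 3 each), and no pregnant value was above 56.5 FPKM where no non-pregnant value was below 66.1 FPKM. Socs3 was 0.796 times as abundant in pregnancy (log2 change -0.32 ± 0.072, SE; unadjusted p = 0.00221 and adjusted p = 0.268, limma). It was lower in pregnancy in all 18 alternative fits, with log2 changes between -0.35 and -0.30. Since the groups did not overlap, leaving out a library could not change this direction. The limma adjusted p was 0.0110 with array weights and between 0.0954 and 0.738 in the other alternative fits. Pim3, the other STAT3-induced gene, had the highest level of the 10, with groups that overlapped. It stood at 85.1, 94.3 and 77.5 FPKM in pregnant and at 82.6, 65.3 and 94.3 FPKM in non-pregnant libraries (log2 change 0.096, 95% interval from -0.23 to 0.43; limma adjusted p = 0.761).

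The promoters of Socs3 and Pim3 are shown because these genes share a place downstream of STAT3 and differed in how they stood between the groups, and that of Cish, a related feedback gene of STAT5 signalling, because it stood on the other side. Each sequence runs 5′ to 3′ from 250 bases before the RefSeq start of the gene to 50 after it (RefSeq, GRCm38.p6, the assembly that mm10 names), and capitals mark the STAT motif TTCNNNGAA, which reads the same on both strands. The Socs3 window lies at chr11:117969317-117969616 (minus strand) and that of Cish at chr9:107296409-107296708 (plus strand). For Socs3 and Cish the GENCODE model of the gene begins further upstream than the window. The Pim3 window lies at chr15:88861944-88862243 (plus strand).
Socs3: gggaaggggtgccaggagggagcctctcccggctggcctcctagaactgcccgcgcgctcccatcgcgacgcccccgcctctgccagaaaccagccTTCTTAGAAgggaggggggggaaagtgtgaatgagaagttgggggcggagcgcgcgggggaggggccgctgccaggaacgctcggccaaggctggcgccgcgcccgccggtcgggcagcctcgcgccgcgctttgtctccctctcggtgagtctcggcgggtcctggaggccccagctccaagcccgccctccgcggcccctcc
Cish: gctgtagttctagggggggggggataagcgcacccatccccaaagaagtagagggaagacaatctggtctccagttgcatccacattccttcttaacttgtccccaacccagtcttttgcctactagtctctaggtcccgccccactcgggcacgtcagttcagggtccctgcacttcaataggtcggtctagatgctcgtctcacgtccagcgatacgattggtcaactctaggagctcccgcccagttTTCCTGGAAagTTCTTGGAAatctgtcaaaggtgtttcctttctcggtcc
Pim3: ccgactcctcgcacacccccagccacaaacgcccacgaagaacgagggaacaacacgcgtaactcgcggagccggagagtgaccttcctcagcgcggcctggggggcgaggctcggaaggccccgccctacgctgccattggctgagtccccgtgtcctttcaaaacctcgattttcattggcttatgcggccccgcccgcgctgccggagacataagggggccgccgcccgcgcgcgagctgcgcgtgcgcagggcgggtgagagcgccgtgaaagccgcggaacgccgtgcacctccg
Socs3 held 1 match, TTCTTAGAA, whose first base is base 97 of the window. Cish held 2, TTCCTGGAA from base 251 and TTCTTGGAA from base 262, and Pim3 held none. The Socs3 match thus lies in the 250 bases before the RefSeq start, and both Cish matches lie in the 50 bases that follow. Among the 10 genes, which have 11 promoters in the table, Socs3 alone held the motif, and 8.30% of all 32851 promoters of this length hold it. A match describes the letters of this window and is no measure of binding.

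The spread of these genes was larger outside pregnancy, and the size of several changes depended on 1 non-pregnant library. All 10 genes had a larger SD in the non-pregnant than in the pregnant libraries, as did 74.7% of all tested genes. Il6st, Lifr, Osmr and Socs3 stood in the order non-pregnant library 2 over 1 over 3, an order shared by 22.9% of all tested genes. The endothelial marker sum had the same order, at 186, 30.2 and 15.1 FPKM. The biliary sum stood in this order too, at 7592, 7059 and 6133 FPKM, and the macrophage sum, at 90.9, 82.1 and 57.8 FPKM. The stellate cell and fibroblast sum did as well, at 15.6, 13.4 and 12.2 FPKM. Jak2, Il6ra, Il22ra1 and Pim3 stood in the opposite order, 3 over 1 over 2, as did 25.5% of all tested genes. Leaving out non-pregnant library 2 turned Pim3 to a log2 change of -0.047, and leaving out library 3 turned Lifr to -0.031. With array weights, limma counts libraries according to their spread. The weights were 1.93, 1.95 and 0.859 for pregnant libraries 1 to 3 and 3.68, 0.411 and 0.205 for non-pregnant libraries 1 to 3. Non-pregnant library 1 thus carried most of the weight of its group. In this fit Socs3, Jak2, Stat3 and Il22ra1 passed the test as lower in pregnancy (limma adjusted p of 0.0110, 0.0235, 0.0288 and 0.0414). So did 5.09% of all tested genes, and Il22ra1 was tested only through its non-pregnant values. Those weights were estimated from the same 6 libraries.

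**Figure D3:**
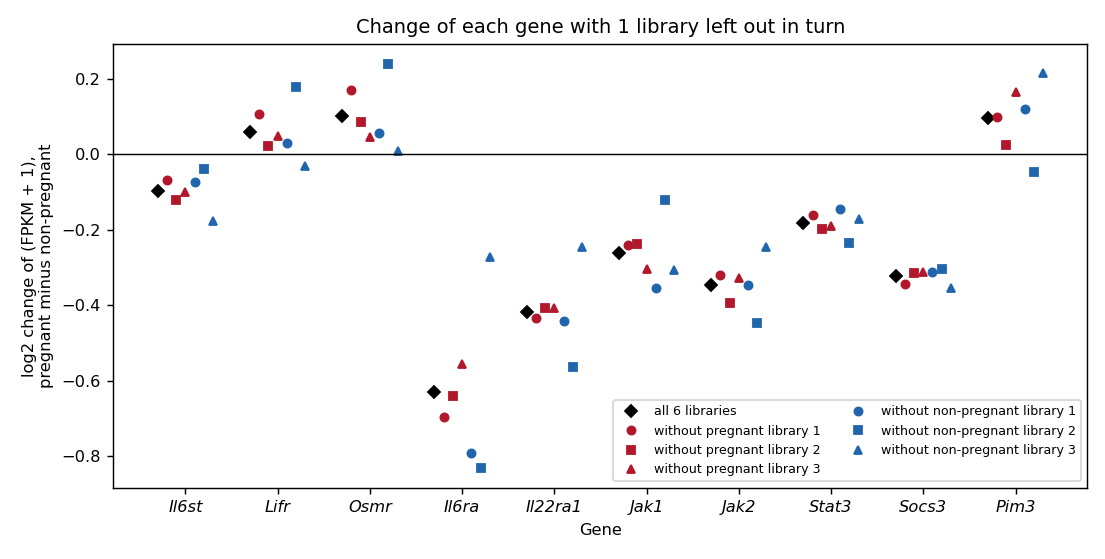
Log2 change of each gene (pregnant minus non-pregnant, on log2(FPKM + 1)) with all 6 libraries (black) and with 1 library left out in turn (red, pregnant; blue, non-pregnant). Socs3 and Stat3 stay within a narrow band, Il6ra runs from -0.83 to -0.27, and Lifr and Pim3 each cross 0 once.

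In level per length the 10 genes ran from Pim3 through Socs3, Il6st, Jak1, Lifr, Stat3, Jak2 and Osmr to Il6ra and Il22ra1 by their mean over all libraries, a span from 83.2 to 1.11 FPKM. Jak1 and Lifr could not be placed in order, since their values overlapped in both groups. In the pregnant libraries Il6ra and Il22ra1 overlapped as well, and in the non-pregnant libraries Pim3 overlapped Socs3, Stat3 overlapped Jak2, and Osmr, Il6ra and Il22ra1 overlapped each other. Il6ra over Il6st, a ratio within each library that no scaling changes, was 0.0220, 0.0175 and 0.0136 in pregnant libraries, against 0.0244, 0.0210 and 0.0820 in non-pregnant libraries.

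Most ligand genes of these receptors did not pass the filter, and most of those tested lay on the higher side in pregnancy. Of 12 ligand genes 5 were tested, 0 were called, 4 lay above 0 and 1 below, and their median log2 change was 0.32 (limma). Unadjusted p was under 0.05 for 3, all higher in pregnancy, against 7.09% of all tested genes, and groups that did not overlap, higher in pregnancy, were found for 2, against 9.90% of all tested genes. Lif, the leukaemia inhibitory factor, stood at 2.68, 2.39 and 2.82 FPKM in pregnant libraries, against 1.81, 1.89 and 1.09 FPKM in non-pregnant libraries (log2 change 0.50 ± 0.14, SE; limma adjusted p = 0.295). Its groups did not overlap. Ctf1, which encodes cardiotrophin 1, did not overlap either, at 8.20 to 8.91 FPKM in pregnant and 5.11 to 7.71 FPKM in non-pregnant libraries (limma adjusted p = 0.369). Clcf1, a ligand of the CNTF receptor, was the most abundant at 45.0, 40.5 and 56.0 FPKM in pregnant and 42.1, 35.3 and 32.9 FPKM in non-pregnant libraries, with groups that overlapped. Its exons overlap those of AC109138.7, a protein-coding gene model on the same strand, so its level is uncertain. Il11, which acts through Il11ra1, stood at 1.34 ± 0.19 FPKM in pregnant and 1.05 ± 0.19 FPKM in non-pregnant libraries (SD, n = 3 each).

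Cntf, which encodes ciliary neurotrophic factor, was the 1 tested ligand below 0, at 1.99, 1.84 and 1.25 FPKM in pregnant and 2.05, 0.863 and 2.99 FPKM in non-pregnant libraries (log2 change -0.081; limma adjusted p = 0.894), with groups that overlapped.

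The ligands that did not pass the filter stayed under 1 FPKM in every library. Il6 had 4 fragments in the pregnant and 1 in the non-pregnant libraries together. Il22, a product of lymphocytes, had 0 fragments in all 6, which at 3 fragments per library allows between 0.0768 and 0.107 FPKM; such limits cover counting error only. Osm stood at 0.215, 0.157 and 0.104 FPKM in pregnant and at 0.0307, 0.0582 and 0.0625 FPKM in non-pregnant libraries, from 30 and 11 fragments. Osm is known from macrophages and was highest in pregnant library 1 and lowest of that group in library 3, as was the macrophage marker sum at 191, 162 and 114 FPKM. In the non-pregnant libraries the orders differed, with that sum at 82.1, 90.9 and 57.8 FPKM and Osm at 2, 4 and 5 fragments. The part of macrophages in the value of Osm was not tested. Ebi3, a subunit of IL-27, stood between 0.280 and 0.878 FPKM in pregnant and between 0.182 and 0.345 FPKM in non-pregnant libraries. Of 11 further receptor chains 3 were tested and 0 called, with a median log2 change of -0.063; Il11ra1 stood between 7.86 and 8.45 FPKM in pregnant and between 7.51 and 9.02 FPKM in non-pregnant libraries, and Il20rb between 0.931 and 1.20 FPKM in pregnant and between 0.936 and 1.93 FPKM in non-pregnant libraries.

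None of the other Janus kinase and STAT genes passed the test. All 8 were tested and 0 were called, with a median log2 change of -0.059 (limma). Stat6, which carries the signals of IL-4 and IL-13, was the most abundant of those named, at 42.1, 39.5 and 36.2 FPKM in pregnant and 40.8, 44.1 and 37.8 FPKM in non-pregnant libraries, and its groups overlapped. Stat5a stood at 5.15 ± 0.17 FPKM in pregnant and 6.12 ± 0.94 FPKM in non-pregnant libraries, with groups that did not overlap (SD, n = 3 each). Stat2 stood at 10.97 ± 0.37 FPKM in pregnant and 9.31 ± 1.93 FPKM in non-pregnant libraries, and Stat5b at 16.9 ± 1.44 FPKM in pregnant and 17.8 ± 0.88 FPKM in non-pregnant libraries, and the groups of both overlapped (SD, n = 3 each; limma adjusted p from 0.417 for Stat5a to 0.666 for Stat5b).

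The feedback genes of the SOCS family lay on both sides. Of 15 other negative regulators and adaptors all were tested, 0 were called, 6 lay above 0 and 9 below, with a median log2 change of -0.040 (limma). Socs2, an inhibitor of growth hormone receptor signalling, stood at 5.74, 6.23 and 6.13 FPKM in pregnant libraries, against 4.56, 4.84 and 3.48 FPKM in non-pregnant libraries (log2 change 0.42 ± 0.11, SE; limma adjusted p = 0.295). Cish stood at 14.8, 11.9 and 14.6 FPKM in pregnant and at 10.5, 10.6 and 5.71 FPKM in non-pregnant libraries (log2 change 0.61 ± 0.21, SE; limma adjusted p = 0.317), and without non-pregnant library 3 its log2 change was 0.35. For Socs2 and Cish the groups did not overlap, with pregnancy the higher, where Socs3 was the lower. They were the only 2 of the 15 that were higher with no overlap, against 9.90% of all tested genes. Socs1 stood between 8.51 and 11.2 FPKM in pregnant and between 6.87 and 9.27 FPKM in non-pregnant libraries and overlapped. Pias3, which binds STAT3 and blocks its activity, stood at 6.76 ± 0.37 FPKM in pregnant and 8.12 ± 1.05 FPKM in non-pregnant libraries (SD, n = 3 each, limma adjusted p = 0.370). It was the 1 gene of the 15 that was lower with no overlap, against 12.2% of all tested genes.

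**Figure D4:**
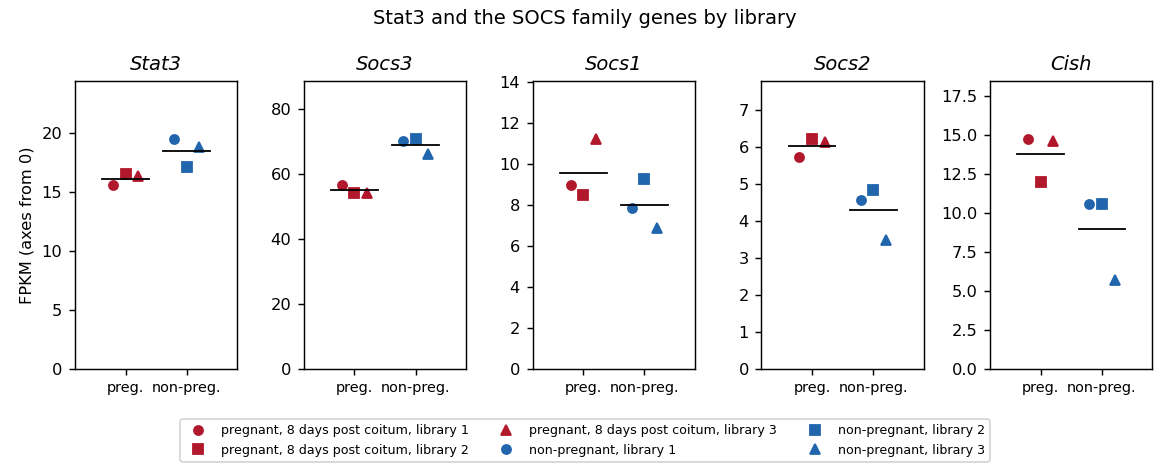
FPKM of Stat3, Socs3, Socs1, Socs2 and Cish in each library, pregnant (red) left of non-pregnant (blue), with group means as black lines (3 libraries each) and every axis from 0. Stat3 and Socs3 lie lower in all pregnant libraries and Socs2 and Cish higher, while Socs1 overlaps.

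Genes that STAT3 is known to induce lay on both sides. Of 22 such genes 20 were tested, 0 were called, 13 lay above 0 and 7 below, with a median log2 change of 0.13 (limma); many of them also answer to other factors. Of the 20, 5 were higher in pregnancy with no overlap between groups, against 9.90% of all tested genes, and 2 were lower in this way, against 12.2%. Tnfaip3, which encodes the NF-kB inhibitor A20, had 19.3, 18.0 and 20.2 FPKM in pregnant libraries, against 13.2, 12.3 and 7.65 FPKM in non-pregnant libraries. Myc, the growth regulator, had 75.4, 81.1 and 86.4 FPKM in pregnant libraries, against 59.6, 69.1 and 67.7 FPKM in non-pregnant libraries. Ccnd1, which encodes cyclin D1, stood at 151 to 234 FPKM in pregnant libraries, against a wide range of 33.0 to 130 FPKM in non-pregnant libraries. Cebpd, a transcription factor of the acute-phase response, was lower in all pregnant libraries, at 3.02 ± 0.27 FPKM against 3.92 ± 0.45 FPKM in non-pregnant libraries (SD, n = 3 each). Limma adjusted p lay between 0.277 for Tnfaip3 and 0.315 for Cebpd.

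Acute-phase and mucosal defence genes downstream of STAT3 also lay on both sides. Of 19 genes 10 were tested, 0 were called, 6 lay above 0 and 4 below, with a median log2 change of 0.12 (limma). The fibrinogen genes Fga and Fgg stood at 32.9 ± 7.21 and 23.8 ± 4.64 FPKM in pregnant and at 66.1 ± 30.0 and 36.6 ± 6.35 FPKM in non-pregnant libraries (SD, n = 3 each; limma adjusted p of 0.301 and 0.295). These are abundant hepatocyte products. The hepatocyte marker sums given above lay lower in pregnancy too, with Ahsg the largest change among the markers and Alb overlapping between groups. The part of hepatocyte transcripts in Fga and Fgg was not tested. Fgb, the remaining fibrinogen gene, lay on the other side with groups that overlapped (log2 change 0.19). It stood at 1.73 ± 0.52 FPKM in pregnant and 1.38 ± 0.37 FPKM in non-pregnant libraries (SD, n = 3 each). Orm1, which encodes an acute-phase glycoprotein, stood at 1.94, 2.17 and 1.68 FPKM in pregnant and at 0.541, 1.28 and 0.843 FPKM in non-pregnant libraries, and passed the filter only through its pregnant values. Muc1, an epithelial mucin, stood at 153 ± 17.1 FPKM in pregnant and 106 ± 24.0 FPKM in non-pregnant libraries (SD, n = 3 each). Lcn2, which was picked out after the values had been seen, stood at 27.6, 28.0 and 19.1 FPKM in pregnant and at 37.8, 25.5 and 95.3 FPKM in non-pregnant libraries. Non-pregnant library 3 was the highest of the 6 for Lcn2, Fga and Fgg, and for Jak2, Il6ra and Il22ra1 among the 10 genes followed here, as it was for 35.8% of all tested genes.

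**Figure D5:**
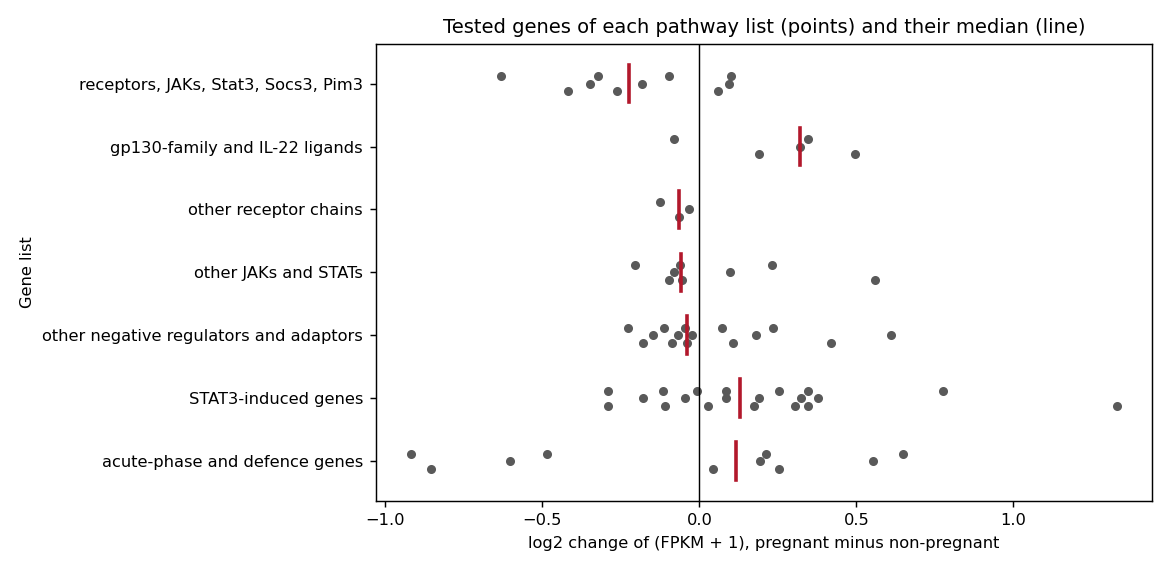
Log2 change (pregnant minus non-pregnant, on log2(FPKM + 1)) of the tested genes of each list (points) with the list's median (red line). The 10 genes followed here have a median of -0.22 and the ligands one of 0.32, and both lists of induced genes spread to either side of 0. Among the 10, Il6ra and Il22ra1 passed the filter only through their non-pregnant values.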

How the data were processed

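The authors deposited FPKM values, 1 column per library, for 21700 genes. Per the submitters' processing notes, cutadapt 3.4, STAR 2.7.9a, HTSeq 0.13.5, DESeq2 1.30.1 and build mm10 were named, with no role given. Libraries were made with a ribosomal RNA depletion kit, per the labels' protocols. Over the 14914 genes above 0 in every library, the median ratio to the geometric mean was 1.000053 in all 6, so the deposited values already carry median-of-ratios scaling, and repeating it changes nothing. FPKM times GENCODE M21 exon length, divided by 1 step per library, was whole within 0.01 for 98.5% of values above 0, which gave the fragment numbers.

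Values were tested two-sided as log2(FPKM + 1) in R 4.3.3 with limma 3.58.1, with a trended prior variance, over the 11412 genes that averaged 1 FPKM or more, at a Benjamini-Hochberg adjusted p of 0.05, pregnant minus non-pregnant. Tables used Python 3.11.15, pandas 2.3.3 and scipy 1.17.1. The text names the 10 genes, the 4 genes of smallest p in each pathway list, ligands with a mean of at least 0.1 FPKM, 7 marker genes (among them Cd5l, at 9.29 to 20.1 FPKM in pregnant and 0.363 to 1.40 FPKM in non-pregnant libraries), the 3 genes most like Socs3, and others to complete a pathway step or where said to be chosen after their values were seen; some genes that this rule takes in are not reported here. The genes and lists were chosen with earlier results of these data known. Other pseudocounts, filters, scalings and weights, a replicate block, limma-voom and leaving out each library were the alternatives. Replicate numbers were not used to pair the libraries in the main fit.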

Additional observations from a re-analysis of the deposited data

How the results depend on the processing

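Over all genes tested, 10 genes were called, and the count was 0 with no filter on low values, 4 with a mean of at least 5 FPKM, 5 with robust empirical Bayes, 1 with limma-voom on recovered fragments and 1301 with array weights (limma; 2258, 1083, 1511, 1466 and 3640 at an unadjusted p under 0.05). Leaving out 1 library in turn gave between 0 and 133 calls, the highest without non-pregnant library 2. Of the 10 gp130 and IL-22 receptor genes 0 were called in each of these fits except with array weights, which called 4. With a mean of at least 5 FPKM only 7 of the 10 were tested. Among these 10 genes only Lifr and Pim3 changed direction, Lifr to -0.031 without non-pregnant library 3 (range with 1 library left out, up to 0.18) and Pim3 to -0.047 without non-pregnant library 2 (up to 0.21). Outside them Il20rb changed to 0.054 without non-pregnant library 3 (down to -0.25), and Il10rb to 0.036 without non-pregnant library 2 and to 0.0052 without pregnant library 3 (down to -0.11). The cause was not tested. The median log2 change of the other JAKs and STATs was 0.11 without non-pregnant library 2, and that of the acute-phase and defence genes was -0.54 with a mean of at least 5 FPKM, where fewer of its genes are tested.

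With the replicate block 13 genes were called and 0 of the 10. Libraries with the same number did not deviate together (correlations of 0.0679, 0.0186 and -0.138 for numbers 1 to 3 of the titles). These correlations cannot decide whether such libraries were prepared together, and non-pregnant library 3 has the number 4 in its description. Il22ra1, with 50 to 184 fragments a library, and the ligands under 0.1 FPKM are limited by depth.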

Other observations

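The genes whose values followed Socs3 most closely over the 6 libraries were Slc44a2, a choline transporter gene, Dffa, which encodes the inhibitor of a caspase-activated nuclease, and Sox7, an endothelial transcription factor gene, with Pearson correlations of log2(FPKM + 1) of 0.995, 0.986 and 0.983 over 6 libraries. In all, 34 tested genes had a correlation above 0.95, and the 6 libraries fall into 2 groups, so the likeness describes a shared difference between groups. Slc44a2 stood at 14.6, 14.1 and 14.2 FPKM in pregnant and at 15.7, 15.8 and 15.4 FPKM in non-pregnant libraries. Sox7 stood at 1.32, 1.16 and 1.22 FPKM in pregnant and at 2.32, 2.88 and 2.12 FPKM in non-pregnant libraries.

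Il10ra, the ligand-binding chain of the IL-10 receptor, known from leukocytes, stood at 0.805, 0.620 and 0.305 FPKM in pregnant and at 0.110, 0.0473 and 0.0568 FPKM in non-pregnant libraries, under the filter of the test. It followed the order of the macrophage marker sum in the pregnant libraries, at 191, 162 and 114 FPKM. In the non-pregnant libraries it did not, with that sum at 82.1, 90.9 and 57.8 FPKM. The part of macrophages in Il10ra was not tested. Cish over Socs3, computed after the values were seen, was 0.261, 0.220 and 0.270 in pregnant libraries, against 0.150, 0.149 and 0.0864 in non-pregnant libraries. Since Cish was higher and Socs3 lower with no overlap, this ratio had to separate the groups and adds no evidence of its own. The STAT motif TTCNNNGAA was found in the promoters of 2 of 10 other negative regulators (Cish and Gab1), 3 of 18 STAT3-induced genes, 4 of 14 acute-phase and defence genes, 1 of 7 other receptor chains, 0 of 7 other JAKs and STATs and 0 of 8 ligands, against 9.55% of all genes with a promoter in the table.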
